A study of Homo sapiens with 23 samples.

Results

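The cytosolic ribosomal protein genes encode the protein part of the ribosome that translates cellular messenger RNA outside mitochondria. They were chosen by name from the protein-coding genes of GENCODE release 44 on chromosomes 1 to 22 and X: every symbol made of RPS or RPL, a number and at most an A, X or L with a further number, together with RPSA, RPLP0, RPLP1 and RPLP2. The rule gave 84 of 19970 protein-coding genes, of which 31 encode small-subunit proteins, 43 large-subunit proteins, 3 the ribosomal stalk and 7 paralogs named after another member. Chromatin immunoprecipitation followed by sequencing (ChIP-seq) had been performed in SW480, an established human colorectal cancer cell line, and each of 23 libraries was deposited as a list of enriched regions. Propionylated histone H3 lysine 18 (H3K18pr) and histone H4 lysine 12 (H4K12pr) were profiled after 10 mM sodium propionate (NaPr), and the butyrylated forms (H3K18bu, H4K12bu) after 1 mM sodium butyrate (NaBu), each treatment lasting 12 to 16 hours. The acetylated forms (H3K18ac, H4K12ac) were profiled after NaPr, after NaBu and in untreated cells. These 10 groups had 2 libraries each, and each of the 3 cell conditions had 1 input library of sheared chromatin without immunoprecipitation. For each gene, a window from 1 kb before to 1 kb after the annotated start of its canonical transcript was examined, and the measurements were whether a region lay in it, how many bp were covered and where the strongest summit lay.

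Ribosomes need their proteins in nearly equal numbers, and in growing cells these genes are among the most actively transcribed. Their transcripts typically begin with a cytosine followed by a run of pyrimidines, the 5′ terminal oligopyrimidine (TOP) sequence, through which their translation follows mTOR signalling. Acetylation, propionylation and butyrylation of histone lysines attach acyl groups of increasing chain length to the same residues, are drawn from the corresponding acyl-CoA metabolites and are typically found on nucleosomes flanking active starts. Butyrate is also known to inhibit histone deacetylases.

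The sequence at the start shows what most members share that the choice by name did not use. The annotated start was a C followed by further C or T bases, for at least 5 bases in all, in 59 of 84 members (70.2%), and in 58 of the 77 that are not paralogs (75.3%). The same start was present in 20 of 22 other translation genes with known TOP sequences, in 5 of 78 mitochondrial ribosomal protein genes (6.41%), in 1 of 43 proteasome subunit genes (2.33%) and in 4.59% of all 19970 protein-coding genes, on the strand of each gene. Those of 9 members are shown as examples of small-subunit, large-subunit and stalk genes and of 1 paralog that lacks the run. Each sequence is the GRCh38 (hg38) reference on the strand of the gene, with 30 bases before the start and 30 from the start onward, and capitals mark the longest unbroken run of C or T touching the interval from 5 bases before to 5 bases after the start. The intervals are chr11:75399488-75399547 (plus strand) for RPS3, chr9:19380207-19380266 (minus strand) for RPS6, chr19:41860225-41860284 (plus strand) for RPS19, chr3:39406690-39406749 (plus strand) for RPSA, chr15:66504826-66504885 (minus strand) for RPL4, chr1:92832010-92832069 (plus strand) for RPL5, chr1:23691776-23691835 (plus strand) for RPL11, chr15:69452788-69452847 (plus strand) for RPLP1 and chr14:46651752-46651811 (minus strand) for RPL10L.
RPS3: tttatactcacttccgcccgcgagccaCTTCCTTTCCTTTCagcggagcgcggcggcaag
RPS6: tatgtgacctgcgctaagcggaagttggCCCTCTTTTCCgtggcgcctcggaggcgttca
RPS19: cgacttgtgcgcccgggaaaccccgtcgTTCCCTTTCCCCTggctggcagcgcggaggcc
RPSA: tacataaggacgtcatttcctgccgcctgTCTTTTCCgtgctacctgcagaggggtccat
RPL4: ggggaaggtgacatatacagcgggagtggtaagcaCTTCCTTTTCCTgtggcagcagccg
RPL5: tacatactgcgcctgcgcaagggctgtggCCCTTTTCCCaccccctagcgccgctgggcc
RPL11: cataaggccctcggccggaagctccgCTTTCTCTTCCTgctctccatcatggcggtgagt
RPLP1: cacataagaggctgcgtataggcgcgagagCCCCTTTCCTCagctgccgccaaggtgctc
RPL10L: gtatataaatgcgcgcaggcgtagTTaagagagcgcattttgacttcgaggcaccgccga
The run was 8 to 14 bases long in the 8 members that are not paralogs. In RPL4 it began 5 bases after the annotated start, so that RPL4 was not counted among the 59. The longest run was 2 bases in RPL10L.

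The lists themselves differed in size, which bears on every comparison of covered length. They held 8158 to 208823 regions, with the H4K12bu lists the shortest. No read totals are held in them, so depth was not known directly. A background density estimated from fold and p values of weak regions was 3.38 to 8.38 fragments per kb in the propionyl libraries. It was 24.1 to 38.6 in the NaPr acetyl libraries and 11.2 to 38.5 in the untreated acetyl ones. It was not estimated for the NaBu libraries and was not used in the tests. The library labelled H3K18ac NaPr replicate 1 (202787 regions) stood apart from its replicate (95194 regions): across all 19970 windows, which are not independent, its covered bp had a Spearman correlation of 0.922 with H4K12ac untreated replicate 1, its closest library, and of 0.773 with its own replicate. H4K12ac NaBu replicate 2 (11680 regions) was closest to H3K18bu replicate 1 (0.684) and had 0.603 with its own replicate (88658 regions). H4K12ac NaBu replicate 1 was itself closest to H3K18ac NaBu replicate 2 (0.711). H3K18pr replicate 1 (0.798, and 0.784 with its own replicate) and H3K18bu replicate 1 (0.684 and 0.604) were also closest to another group. So were H4K12bu replicate 1 (0.638 and 0.580), H3K18ac NaPr replicate 2 (0.796 and 0.773) and H4K12ac NaPr replicate 1 (0.578 and 0.567). Tested results that use H3K18ac NaPr replicate 1 or H4K12ac NaBu replicate 2 are also given without it. Tags in the list names divide the libraries into 3 run batches: the propionyl libraries with the NaPr input, the NaPr and untreated acetyl libraries with the untreated input, and all NaBu libraries. The 4 NaBu acetyl lists carry a control tag in their names, and the sample labels (1 mM NaBu) were followed. Of 8 epithelial and colon marker genes, all had a region at the start in at least 3 of the 20 immunoprecipitated libraries and KRT18 in 20, while PTPRC and ALB, markers of leukocytes and liver, had none. The other 6 of 8 markers of other cell types had a region in 1 to 11 libraries, the most being COL1A1, a fibroblast collagen gene.

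H3K18ac, H3K18pr and H4K12pr regions, and H4K12ac regions in untreated cells, lay at 78 to 82 of the 84 ribosomal protein starts in each library, whereas butyryl regions were present at 24 to 48. H4K12ac regions after NaPr or NaBu were present at 48 to 68, and 34 members had a region in both libraries of all 6 acetyl groups. Of the other protein-coding windows, 15.2% held a region in H4K12ac NaBu replicate 2, so at most that share did in all 6 groups. In untreated cells, 81 and 82 of 84 windows held an H3K18ac region in the 2 libraries, and 81 and 81 held an H4K12ac region. After NaPr, H3K18pr regions lay in 81 and 78 windows, H4K12pr in 81 and 81, and H3K18ac in 81 and 81. H4K12ac regions after NaPr lay in 67 and 56 windows. After NaBu, H3K18ac regions lay in 81 and 78 windows and H4K12ac in 68 and 48. The butyryl marks were found in 48 and 36 windows for H3K18bu and in 36 and 24 for H4K12bu. The plot of windows with a region in each library sets these shares beside other promoters.

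**Figure D1:**
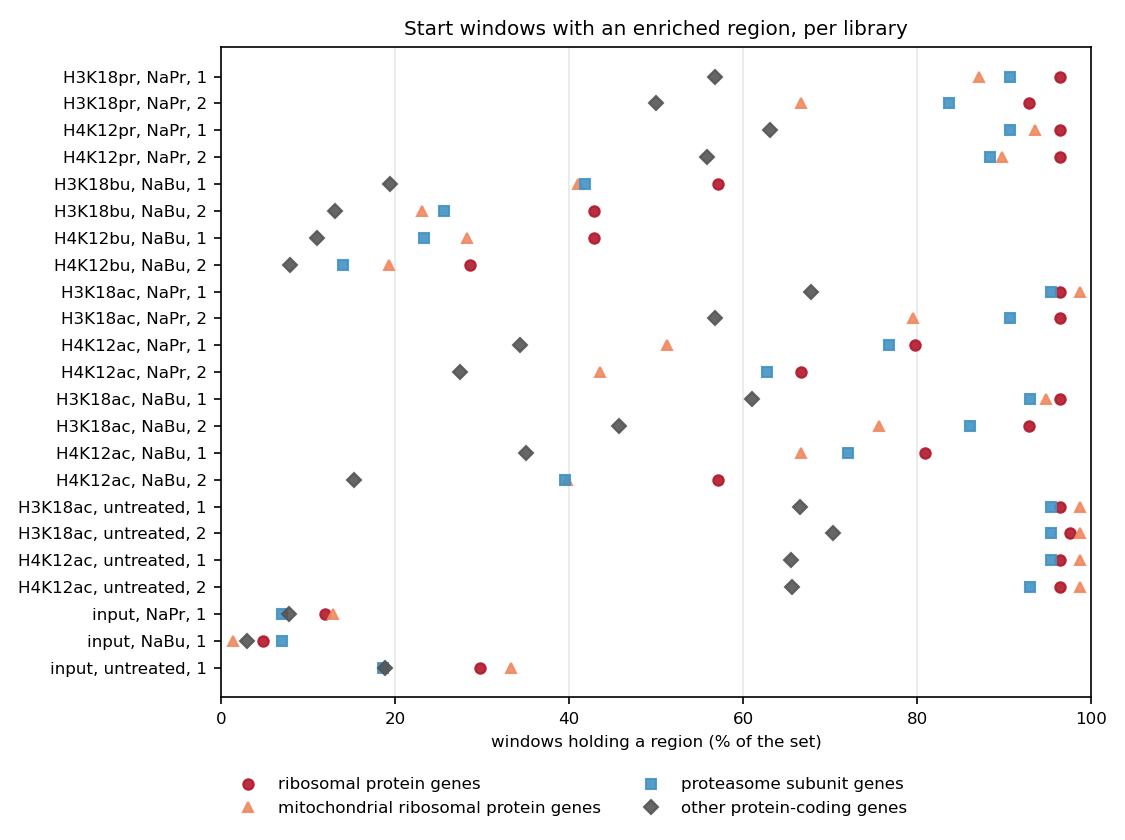
Share of start windows that held at least 1 enriched region (horizontal axis, % of the set) in each of the 23 libraries (vertical axis: mark, treatment, replicate), for the ribosomal protein genes, 2 comparison sets and all other protein-coding genes. The ribosomal protein share lay above that of the other protein-coding genes in all 20 immunoprecipitated libraries.

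Other protein-coding promoters were marked less often in each of these libraries. Their share ranged from 7.88% in H4K12bu replicate 2, where 24 of 84 ribosomal protein windows held a region (28.6%), to 70.3% in H3K18ac untreated replicate 2, where 82 did (97.6%). The share of ribosomal protein windows was above that of the other genes in 20 of 20 libraries, above that of 43 proteasome subunit genes in 20 and above that of 78 mitochondrial ribosomal protein genes in 15. In the 5 remaining libraries, the 4 untreated ones and H3K18ac NaPr replicate 1, the mitochondrial set stood at 98.7% and the ribosomal protein set at 96.4 to 97.6%. The mean covered length of the ribosomal protein windows was above that of each of those 3 sets in 20 of 20 libraries. The 22 other translation genes with TOP sequences were not below the members in this way. Their share of windows with a region was above that of the members in 12 of 20 libraries, with 54.5% against 42.9% in H4K12bu replicate 1 and 86.4% against 79.8% in H4K12ac NaPr replicate 1, and their mean covered length was above that of the members in 7 of 20.

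The windows differed widely in how much of them was covered. Averaged over the 20 immunoprecipitated libraries, RPL35A, a large-subunit protein gene mutated in some families with Diamond-Blackfan anaemia, had the longest coverage at 1585 bp of a window of just over 2 kb. RPL10, whose product joins the large subunit late in its assembly, followed with 1475 bp, and the paralog RPL7L1 with 1461 bp. At the other end, 3 paralogs were almost bare. RPL10L, known from testis, had no region in any of the 23 libraries. RPL39L, also known from testis, had a region in 1 library, with 270 bp in H3K18ac untreated replicate 2. RPL3L, known from heart and skeletal muscle, had regions in 2 libraries, 489 bp in H3K18pr replicate 1 and 596 bp in H4K12pr replicate 1. The lowest values outside the paralogs were 368.9 bp for RPS24, another Diamond-Blackfan anaemia gene, and 463.8 bp for RPS4X, an X-linked small-subunit gene. The 4 remaining paralogs were covered like the main genes, with means of 1103 bp for RPL22L1, 953.3 bp for RPL26L1 and 899.8 bp for RPS27L beside RPL7L1. The map of covered length by gene and library shows these rows.

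**Figure D2:**
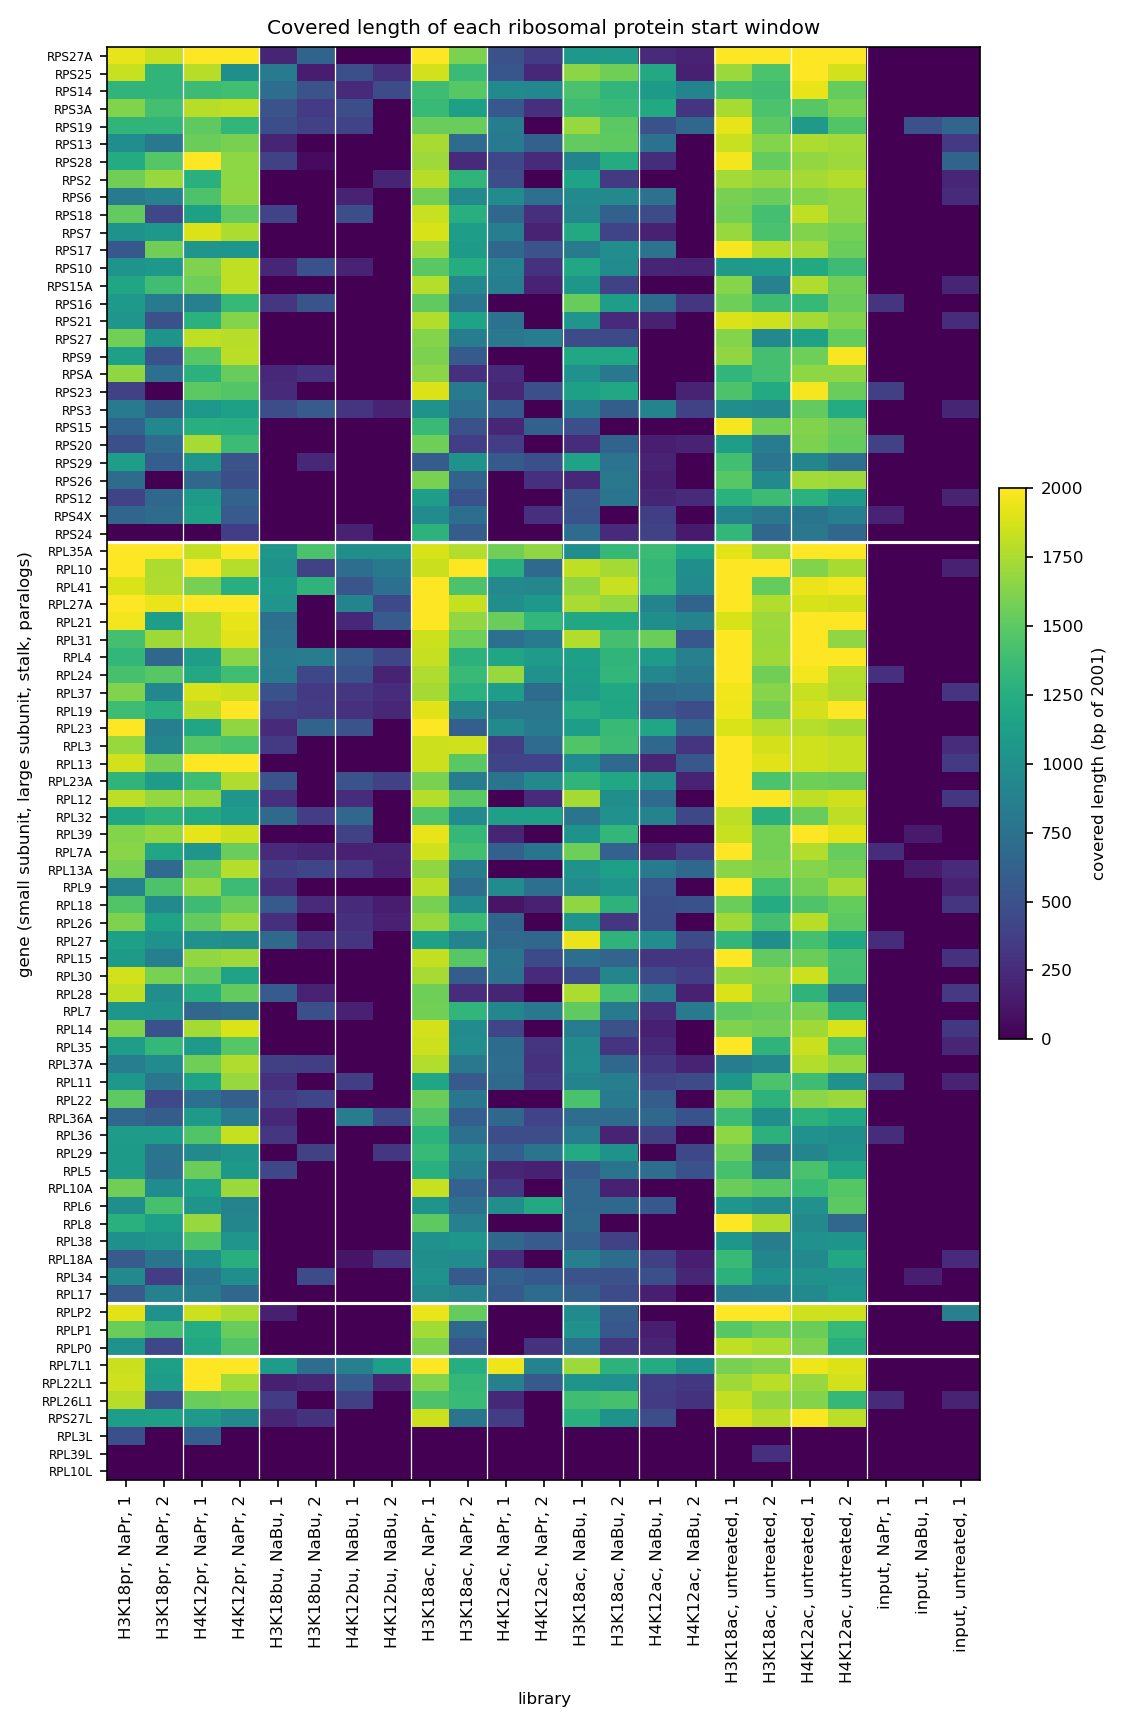
Covered length of the start window (colour, bp) for 81 of the 84 genes (rows, grouped as small subunit, large subunit, stalk and paralogs, and ordered by mean within each group) in the 20 immunoprecipitated and 3 input libraries (columns). Most rows are bright in the propionyl, H3K18ac and untreated H4K12ac columns, dimmer in H4K12ac after NaPr or NaBu and dark in the butyryl and input columns, and the bottom rows RPL3L, RPL39L and RPL10L are dark in nearly every library.

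Regions at these genes lay mainly downstream of the start. Of the covered bp on either side of the start, 52.2 to 75.7% lay downstream over the ribosomal protein windows of the 20 libraries. Over the other protein-coding windows 33.4 to 56.8% did, and the ribosomal protein share was the higher of the pair in 20 of 20 libraries. It was also above that of the mitochondrial ribosomal protein genes in 20 of 20, but above that of the proteasome genes in 10 of 20 and above that of the other TOP translation genes in 14 of 20. The contrast with other promoters was widest for H4K12bu. In H4K12bu replicate 1 the downstream share was 73.9% against 36.3%, and in replicate 2 it was 64.6% against 33.4%. The other TOP translation genes had 65.5% and 67.1% in the same libraries, so this position was not particular to the members. In H3K18bu the values were 52.2% against 40.2% and 59.1% against 35.2%.

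The profile around the start had a trough just before the start and its high point after it. For H4K12ac in untreated cells, coverage of the ribosomal protein windows, averaged over 2 libraries in 50 bp steps, was 76.8% at the upstream high point 475 bp before the start. It dropped to 24.2% at 75 bp before the start and reached 96.1% at 225 bp after it. The other protein-coding genes had 42.1%, 13.1% and 43.5% at their corresponding points. After NaPr, H4K12ac coverage of ribosomal protein windows was 17.4% at the upstream high point and 54.0% at the downstream one, whereas the other genes had 8.95% and 8.07%. H4K12pr reached 63.2% upstream and 93.8% downstream in the same cells. H4K12bu reached 9.76% upstream and 18.2% downstream, against 3.34% and 1.64% for the other genes.

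**Figure D3:**
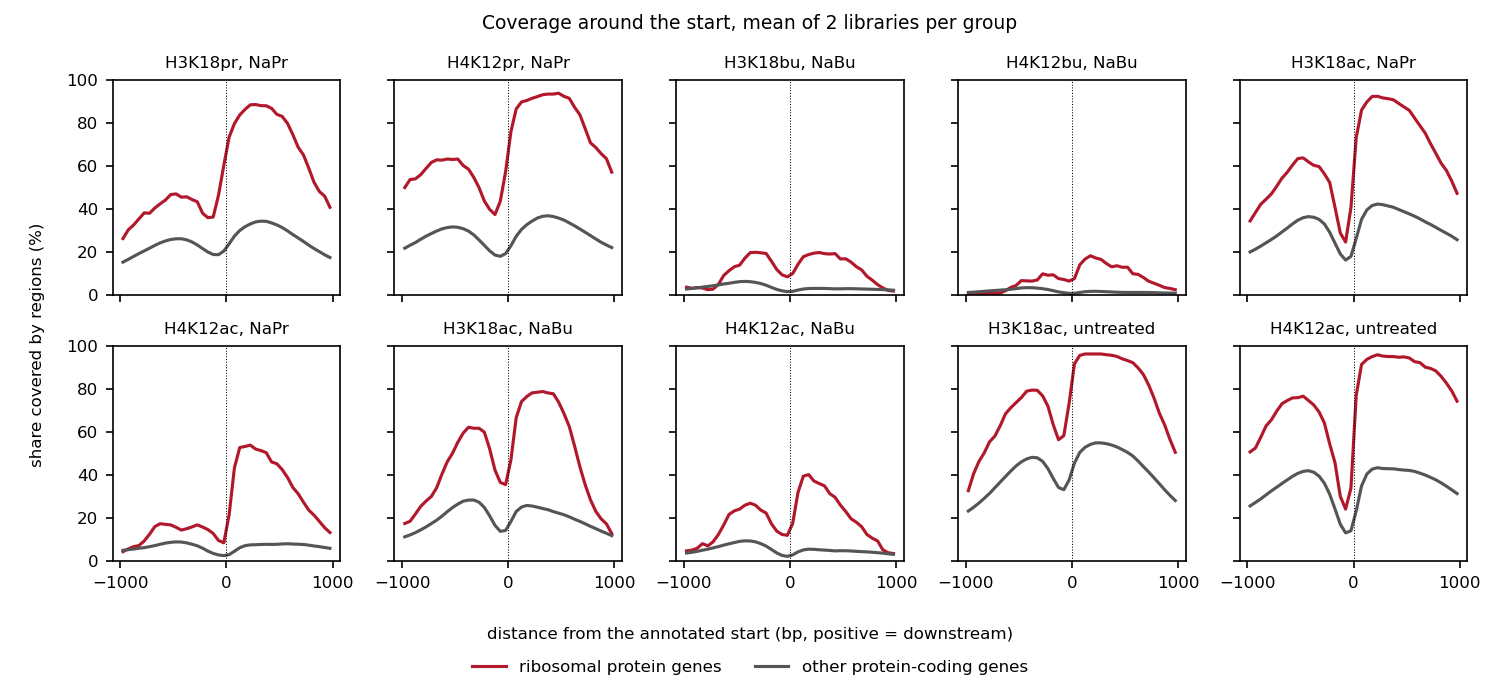
Share of windows covered by regions (vertical axis, %) against distance from the annotated start (horizontal axis, bp, downstream positive) for ribosomal protein genes and other protein-coding genes, as the mean of the 2 libraries of each of the 10 groups. Ribosomal protein genes have a trough just before the start and the higher shoulder downstream in every group but H3K18bu, whereas the other genes have the higher shoulder upstream in both butyryl groups, in both NaBu acetyl groups and in H4K12ac after NaPr.

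The strongest summit in a window lay at different distances in different marks. Its median position was 274 to 277 bp after the start in the 4 propionyl libraries. In the acetyl libraries of NaPr-treated and untreated cells it lay 123 to 202 bp after the start, so the 2 ranges did not overlap. The ranges of the other protein-coding windows did not overlap either, at 185.5 to 220 bp in the propionyl libraries and -123.5 to 180 bp in those acetyl libraries, nor did those of the proteasome genes, at 222 to 305 bp and 134 to 205 bp. Those of the mitochondrial ribosomal protein genes did overlap, at 59 to 232.5 bp and -143 to 133 bp. The shortest region of a list was 340 to 350 bp in the propionyl libraries and 175 to 265 bp in those acetyl libraries. Whether the summit distances follow this length was not tested. After NaBu the position in the members was less stable between replicates, with 108 and -133.5 bp for H3K18ac and 97 and -96.5 bp for H4K12ac, where a negative value lies before the start. H3K18bu gave -146.5 bp in replicate 1 and 185 bp in replicate 2, and H4K12bu gave 161 and 129 bp. The median fold enrichment at that summit, as the authors' peak caller gave it, was 6.89 to 10.6 for the members in the propionyl libraries. Other promoters had 4.55 to 5.92 there and the mitochondrial ribosomal protein genes 4.58 to 5.74. In H3K18pr the members (10.6 and 6.89) lay below the proteasome genes (11.51 and 7.77) and the other TOP translation genes (10.98 and 6.98). In H4K12pr the members (8.46 and 8.76) lay above those sets (7.29 and 8.21, 7.55 and 8.59). In the butyryl libraries the members had 3.46 to 4.04 against 3.62 to 3.88 at other promoters. In the acetyl libraries they had 2.57 (H4K12ac NaPr replicate 2) to 15.49 (H3K18ac untreated replicate 1). Propionyl and acetyl libraries came from different run batches, which cannot be told apart from the marks in these distances and fold values.

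Differences between groups were tested per window with limma on covered bp, in one fit over all 20 immunoprecipitated libraries, with Benjamini-Hochberg adjustment over the 15509 protein-coding windows covered in at least 2 libraries. Of the members, 82 of 84 passed this filter, RPL10L and RPL39L being left out. A window was called at an adjusted p under 0.05. The p-values measure only the spread between these samples, which may be technical, since nothing states that the replicates came from separate cultures.

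The first comparison asked where propionylation and acetylation of the same residue differed in NaPr-treated cells. At H4K12, propionyl regions covered far more of the ribosomal protein windows than acetyl regions did. RPS27A, which encodes ubiquitin fused to a small-subunit protein, was covered over the whole window by H4K12pr in both libraries and over 499 and 354 bp by H4K12ac, a difference of 1574.5 bp (SE 202, adjusted p = 5.6e-05). RPL39, a small protein at the peptide exit tunnel, had 1924 and 1850 bp of H4K12pr against 211 and 0 bp of H4K12ac, a difference of 1781.5 bp (SE 232, adjusted p = 6.48e-05). In both genes the propionyl libraries did not overlap with the acetyl ones. Of 82 members tested, 55 were called higher in H4K12pr and 0 lower, against 38.4% of all windows called higher and 0.213% called lower, and the median difference was 962.8 bp in the members against 508 bp over all windows. The count was 33 without H4K12ac NaPr replicate 2, beside 17.1% of all windows higher.

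All 3 stalk genes were among those called. The stalk binds the translation factors that hydrolyse GTP. RPLP2 had 1849 and 1746 bp of H4K12pr and no H4K12ac region in either NaPr library, a difference of 1797.5 bp (SE 256, adjusted p = 0.000108). RPLP1 had 1235 and 1536 bp against 0 and 0 bp (adjusted p = 0.0011), and RPLP0 had 1194 and 1457 bp against 0 and 297 bp (adjusted p = 0.00537). In all, 9 of 84 members had an H4K12pr region in both libraries and no H4K12ac region in either NaPr library, among them RPL8, RPL13A, RPL22, RPLP1, RPLP2, RPS9, RPS12 and RPS16. The share of other protein-coding windows with this pattern is not given here, so the count says nothing particular about the members. Of those windows, 63.1 and 55.8% held H4K12pr, and 34.4 and 27.4% held H4K12ac after NaPr. RPS9 had 1482 and 1797 bp of H4K12pr (adjusted p = 0.000497 against H4K12ac). RPL22, which binds structured RNAs, had 728 and 609 bp of H4K12pr (adjusted p = 0.104).

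Several members were not separated at H4K12. RPL4, whose product lines the exit tunnel, had 1120 and 1642 bp of H4K12pr and 1176 and 1097 bp of H4K12ac after NaPr (adjusted p = 0.438). RPL35A had 1821 bp and the whole window against 1567 and 1672 bp (adjusted p = 0.191), so both marks covered most of its window. RPS14, whose loss contributes to the anaemia of the 5q deletion, had 1370 and 1396 bp against 950 and 937 bp (adjusted p = 0.0869). RPL41, which encodes the shortest ribosomal protein, had 1593 and 1251 bp against 939 and 927 bp (adjusted p = 0.0791).

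The excess of H4K12pr was much reduced on a scale relative to each library. When each window was ranked among all protein-coding windows of its library, 7 members were called higher and 0 lower, beside 7.52% of all windows higher and 3.33% lower, and the median difference remained positive at 2.103 percentile points. With the same number of regions taken from each library, 15 of 77 members tested were called higher, beside 11.7% of all windows. All propionyl libraries were from one batch and all NaPr acetyl libraries from another, so mark and batch cannot be told apart here.

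At H3K18 few ribosomal protein windows passed the test between the propionyl and acetyl lists. In all, 2 members were called lower in H3K18pr and 0 higher, against 2.57% of all windows lower and 0.838% higher. RPS23, a protein of the decoding centre, had 388 and 0 bp of H3K18pr and 1894 and 813 bp of H3K18ac (difference -1159.5 bp, SE 290, adjusted p = 0.0331). RPS24 had no H3K18pr region and 1291 and 587 bp of H3K18ac (difference -939 bp, SE 257, adjusted p = 0.0478). Neither gene was without H3K18ac in any of its 6 libraries, and RPS24 was the only member outside the paralogs with no H3K18pr region. The median difference was -134.8 bp over members and -146 bp over all windows on the bp scale, and 0.21 percentile points, thus of the opposite sign, on the percentile rank scale, which called 0 members and 0.529% of all windows higher and 0.484% lower. The calls depended on single libraries. H3K18ac NaPr replicate 1 covered a median of 1679.5 bp of the ribosomal protein windows and replicate 2 covered 946 bp. Without replicate 1, 2 members were called higher in H3K18pr and 0 lower, beside 1.21% of all windows higher. Without replicate 2, 14 of 82 were called lower, a smaller share than the 27.9% of all windows. There were 0 calls without H3K18pr replicate 2 and 1, lower in H3K18pr, without H3K18pr replicate 1, beside 0.461% and 1.93% of all windows lower.

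Whether the gap between propionyl and acetyl coverage differed between the residues was tested in the same fit, as a comparison added after the values had been seen. The gap was larger at H4K12 in 46 of 82 members and smaller in 0, against 33.3% and 0.368% of all windows, with a median of 1111 bp in the members and 710.5 bp over all windows. The members had 56.1% called larger and the mitochondrial ribosomal protein genes a similar share, 53.2%. The other TOP translation genes had 45.5% and the proteasome genes 29.3%. RPLP2 showed a gap of 1797.5 bp at H4K12 and of -270.5 bp at H3K18 (adjusted p of the difference 0.00157). The count was 20 without H3K18ac NaPr replicate 1, 20 without H4K12ac NaPr replicate 2 and 21 without H3K18pr replicate 2, beside 15.4%, 14.9% and 16.7% of all windows higher. It was 4 on the percentile rank scale, beside 2.02% of all windows higher and 0.916% lower.

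The second comparison asked where butyrylation and acetylation differed in NaBu-treated cells, within a single batch. The NaBu acetyl lists carry the control tag described above, so their treatment rests on the sample labels. H3K18bu covered less than H3K18ac at 38 of the 82 ribosomal protein starts tested, a count that depended on single libraries. RPL3, which lies close to the peptidyl transferase centre, had 340 and 0 bp of H3K18bu and 1461 and 1375 bp of H3K18ac (difference -1248 bp, SE 240, adjusted p = 0.0027). RPL39 had no H3K18bu region and 1023 and 1325 bp of H3K18ac (difference -1174 bp, SE 232, adjusted p = 0.00301). In both genes the butyryl libraries lay below the acetyl ones without overlap. Of 82 members, 38 were called lower in H3K18bu and 0 higher, against 19.4% of all windows lower and 0% higher, and the median difference was -740 bp in members and -368.5 bp over all windows. The proteasome genes had a similar share, 17 of 41 (41.5%), beside 46.3% of the members, and so did the other TOP translation genes, 11 of 22 (50%). The mitochondrial ribosomal protein genes had a smaller one, 9 of 77 (11.7%). Median differences in these 3 sets, in that order, were -797.5, -788.25 and -491.5 bp. The count fell to 3 without H3K18bu replicate 2, to 3 without H3K18ac NaBu replicate 1 and to 18 without H3K18bu replicate 1, beside 1.43%, 1.26% and 9.21% of all windows lower. On the percentile rank scale 2 members were called lower, beside 0.806% of all windows.

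RPL35A differed in direction from nearly all other members, with 1062 and 1428 bp of H3K18bu and 994 and 1335 bp of H3K18ac (difference 80.5 bp, SE 175, adjusted p = 0.869). It was the single member of 82 with a positive difference. RPL41 had 1094 and 1301 bp of H3K18bu against 1671 and 1834 bp of H3K18ac (adjusted p = 0.0739). RPL4 had 821 and 847 bp against 1130 and 1307 bp (adjusted p = 0.277). These 3 large-subunit genes, which also ranked high in mean coverage, had a region of at least 417 bp in each of the 4 butyryl libraries.

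At H4K12 no butyryl difference was called. H4K12bu covered 0 bp at the median ribosomal protein window in both libraries, and H4K12ac NaBu covered 402.5 and 194.5 bp. Limma called 0 members and 0 windows of all 15509 (0% higher and 0% lower). At an unadjusted p under 0.05 there were 7 of 82 members, beside 358 of all 15509 windows. The median difference was -222 bp in members and 0 bp over all windows. On the percentile rank scale 8 members were called lower and 0 higher, beside 1.53% of all windows lower and 0.0516% higher. H4K12ac NaBu replicate 2 had 11680 regions beside 88658 in replicate 1, and without it the count was again 0.

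Some members carried butyryl regions in every butyryl library and others in none. In all 4 butyryl libraries, 16 members held a region, among them RPS3, RPS14, RPS25, RPL4, RPL7A, RPL10, RPL13A, RPL18, RPL19, RPL22L1, RPL24, RPL35A, RPL37, RPL41 and RPL7L1. None of the 4 libraries held a region at 26 members, among them RPLP0, RPLP1, RPS4X, RPS9, RPS15 and the 3 bare paralogs. Of the other protein-coding windows, 7.88% held a region in H4K12bu replicate 2, so at most that share did in all 4 libraries. The share of those windows with no region in any of the 4 is not given here. RPS14 had 721 and 511 bp of H3K18bu and 240 and 454 bp of H4K12bu. RPL10 had 1030 and 392 bp of H3K18bu and 720 and 806 bp of H4K12bu. RPS3, which also takes part in DNA repair, had 470 and 576 bp of H3K18bu and 307 and 192 bp of H4K12bu. Of the main subunits, 28 and 19 of 43 large-subunit genes held H3K18bu in the 2 libraries and 15 and 14 of 31 small-subunit genes did. For H4K12bu the counts were 23 and 17 of 43 against 10 and 5 of 31.

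The third comparison asked how NaPr changed acetylation, within a single batch. It used the same NaPr acetyl libraries as the first comparison, so the results of the 2 comparisons are not independent. The median fold enrichment at the strongest summit of the members was 2.83 and 2.57 in the H4K12ac NaPr libraries. It was 5.85 and 5.94 in untreated H4K12ac and 8.46 and 8.76 in H4K12pr. H4K12ac coverage was lower after NaPr at most ribosomal protein starts, and at most other promoters too. RPS27A went from the whole window in both untreated libraries to 499 and 354 bp (difference -1574.5 bp, SE 202, adjusted p = 0.000183). RPL39 went from the whole window and 1916 bp to 211 and 0 bp (difference -1853 bp, SE 232, adjusted p = 0.000183). Of 82 members, 67 were called lower and 0 higher, against 62.9% of all windows lower and 0.213% higher, and the median difference was -1056.5 bp in members and -790 bp over all windows. The other translation genes with TOP sequences were lower in 22 of 22, the mitochondrial ribosomal protein genes in 69 of 77 and the proteasome genes in 32 of 41. With equal numbers of regions 27 of 77 members tested were called lower, beside 21.1% of all windows, and on the percentile rank scale 7 lower and 0 higher, beside 5.09% of all windows lower and 2.41% higher.

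Among the genes of the large subunit, RPL3 went from 1859 and 1829 bp of H4K12ac to 365 and 701 bp (adjusted p = 0.000457). RPL5 went from 1423 and 1202 bp to 215 and 186 bp (adjusted p = 0.00195) and RPL11 from 1380 and 1019 bp to 690 and 322 bp (adjusted p = 0.0335). RPL5 and RPL11 form a complex that can bind MDM2. RPL35A had the whole window covered in both untreated libraries and 1567 and 1672 bp after NaPr (adjusted p = 0.0633), and RPL7L1 had 1949 and 1893 bp and then 1953 and 892 bp (adjusted p = 0.148). In the small subunit, RPS6, the substrate of S6 kinase, went from 1626 and 1670 bp to 963 and 734 bp (adjusted p = 0.0112). RPS19, the gene most often mutated in Diamond-Blackfan anaemia, went from 1077 and 1457 bp to 842 and 0 bp (adjusted p = 0.00885). RPSA, also described as the laminin receptor, went from 1663 and 1667 bp to 235 and 0 bp (adjusted p = 0.00115).

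No ribosomal protein window was called in H3K18ac after NaPr in the fit with all libraries. Limma called 0 members, against 2.16% of all windows lower and 0.0903% higher. At an unadjusted p under 0.05 there were 6 of 82 members, beside 2897 of all 15509 windows. The median difference was -187 bp in members and -251.5 bp over all windows, and 2.46 percentile points, of the opposite sign, on the percentile rank scale. H3K18ac NaPr replicate 1 decided this count, since without it 20 of 82 members were called lower, a smaller share than the 33.3% of all windows.

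The H4K12ac difference after NaPr was compared with that of H3K18ac in the same fit, also as a comparison added after the values had been seen. It was more negative in 12 of 82 members (14.6%) and more positive in 0, against 5.82% and 0.316% of all windows. The proteasome genes had 12.2% more negative, the other TOP translation genes 9.09% and the mitochondrial ribosomal protein genes 7.79%. RPL39 had differences of -1853 bp at H4K12ac and -74.5 bp at H3K18ac (adjusted p of the contrast 0.0193). The count depended on single libraries: it was 0 without H3K18ac NaPr replicate 1, H4K12ac NaPr replicate 2, H3K18ac untreated replicate 2, H4K12ac untreated replicate 1 or H4K12ac untreated replicate 2, 1 without H4K12ac NaPr replicate 1, 2 without H3K18ac untreated replicate 1 and 45 without H3K18ac NaPr replicate 2, where 42% of all windows were called lower. It was 1 on the percentile rank scale, beside 0.277% of all windows lower and 0.258% higher.

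The fourth comparison set acetylation after NaBu against untreated cells. It used the same untreated libraries as the third, and NaBu and untreated libraries came from different batches, so NaBu and batch cannot be told apart. Here too the treatment of the NaBu acetyl lists, which carry a control tag, rests on the sample labels. H4K12ac was lower at nearly every ribosomal protein start. RPS27A went from the whole window in both libraries to 245 and 201 bp (difference -1778 bp, SE 202, adjusted p = 2.56e-05), and RPL39 from the whole window and 1916 bp to 0 and 0 bp (difference -1958.5 bp, SE 232, adjusted p = 3.24e-05). Of 82 members, 77 (93.9%) were called lower and 0 higher, against 64% of all windows lower and 0.0451% higher, with a median of -1167.8 bp in members and -819.5 bp over all windows. The share called lower was similar in the other TOP translation genes (95.5%), the proteasome genes (90.2%) and the mitochondrial ribosomal protein genes (88.3%). The count was 54 without H4K12ac NaBu replicate 2, beside 42.4% of all windows lower. With equal numbers of regions it was 30 of 77, beside 21.4% of all windows, and on the percentile rank scale it was 8, beside 6.38% of all windows lower and 1.88% higher. Of the 5 members not called, RPL23, which can bind MDM2, had 1776 and 1734 bp untreated and 1179 and 655 bp after NaBu (adjusted p = 0.0526), and RPS24 had 790 and 670 bp and then 386 and 146 bp (adjusted p = 0.121).

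H3K18ac after NaBu was lower than in untreated cells at some of these genes and was not called at others. RPS15, a small-subunit gene, went from 1975 and 1578 bp to 485 and 0 bp (difference -1534 bp, SE 276, adjusted p = 0.000634). RPL13, a large-subunit gene, went from the whole window and 1911 bp to 969 and 684 bp (difference -1129.5 bp, SE 211, adjusted p = 0.000764). RPLP0 went from 1813 and 1758 bp to 732 and 326 bp (adjusted p = 0.00362). By contrast RPS14 had 1416 and 1384 bp untreated and 1423 and 1316 bp after NaBu (adjusted p = 0.956), and RPL41 had the whole window and 1530 bp and then 1671 and 1834 bp. In all, 26 of 82 members (31.7%) were called lower and 0 higher, against 43.2% of all windows lower and 0.69% higher. The median difference was -544 bp in members and -556 bp over all windows, and it was positive on the percentile rank scale at 2.85 percentile points, where 2 members were called lower beside 1.55% of all windows lower and 0.587% higher. The count was 8 without H3K18ac NaBu replicate 2 and 8 without H3K18ac untreated replicate 1, a smaller share of the members than the 13.4% and 20.4% of all windows called lower.

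The NaBu differences of H4K12ac and H3K18ac were compared in the same way. Limma called 0 members, against 0% of all windows higher and 0.00645% lower. At an unadjusted p under 0.05 there were 25 of 82 members, beside 2082 of all 15509 windows. The median was -617.2 bp in members and -180.5 bp over all windows. Without H4K12ac NaBu replicate 2 the count was again 0, beside 0% of all windows in either direction, and the median in members was -503.5 bp.

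**Figure D4:**
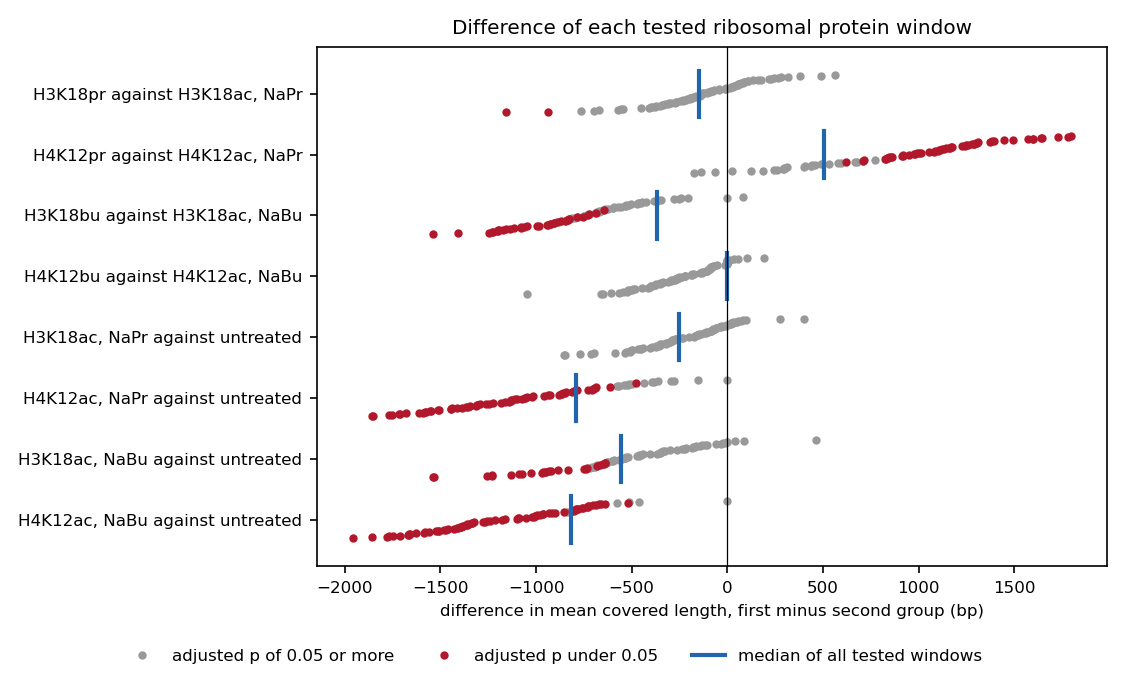
Difference in mean covered length between the groups of each comparison (horizontal axis, bp, first minus second group), with 1 point for each of the 82 tested ribosomal protein windows, sorted within each row. Red points passed an adjusted p under 0.05, and the blue bar is the median of all 15509 windows; the H4K12pr row lies mostly right of its bar and the H4K12ac rows mostly left of theirs.

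Regions of the input lists touched some of the same windows. A region of at least 1 of the 3 input lists lay in 35 of 84 windows. The untreated input list had one at 25 (29.8%, against 18.8% of other protein-coding windows). The NaPr input had one at 10 (11.9%, against 7.78%) and the NaBu input at 4 (4.76%, against 2.98%). The longest were 872 bp at RPLP2 and 649 bp at RPS19, both in untreated input, and RPS19 also had 498 bp in NaBu input. Input regions in the untreated list lay mainly upstream, with 17.5% of their bp downstream of the start. Of the 47 tested members free of input regions, 26 were called higher in H4K12pr than in H4K12ac (55.3%), 20 lower in H3K18bu (42.6%), 35 lower in H4K12ac after NaPr (74.5%), 15 lower in H3K18ac after NaBu (31.9%) and 44 lower in H4K12ac after NaBu (93.6%). The shares of all windows called in the same directions were 38.4%, 19.4%, 62.9%, 43.2% and 64%. For H3K18ac after NaBu the share of these members was thus the smaller one.

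Other features of the loci are given as description. In 13 of 84 members an opposite-strand protein-coding gene starts within 1 kb, so that regions in the window can belong to either start. Among the 77 members that are not paralogs, H4K12pr covered a median of 1680 and 1539 bp in those 13 and of 1448 and 1529 bp in the other 64. The 28 members that host small nucleolar RNAs had medians of 1855 and 1634 bp for untreated H3K18ac, and the other 49 had 1630 and 1413 bp.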

How the data were processed

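Region lists of 20 immunoprecipitated and 3 input ChIP-seq libraries from SW480 cells were analysed. The authors trimmed reads, aligned them to GRCh38 (hg38) and called regions per library; the submitters' processing notes name bcl2fastq 2.17.1, cutadapt 1.8.1, Bowtie2 2.3.1 and MACS2 2.1.0, and names of the lists give a p threshold of 0.01, a limit of 500000 regions and a filter on blacklisted sequence. Each deposited list gives region positions, the fold enrichment (a ratio of pileup over local background at the summit) and −log10 p and q values.

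Here, covered bp per window, from 1 kb before to 1 kb after the start of the Ensembl canonical transcript (GENCODE 44) were computed with Python 3.11.15, NumPy 2.4.6 and pandas 2.3.3 and tested with limma 3.58.1 in R 4.3.3 (trend and robust variance, all 20 libraries in one fit, 10 group means, no covariate). Windows covered in fewer than 2 libraries were left out. The script was tested on simulated shifts. Groups follow the labels. Regions were used whole, with no normalization between lists, so covered length moves with how much was called in a library. Sequences came from the hg38 reference.

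The genes and comparison sets were chosen with earlier results of these data known. Genes named are a fixed set of main and paralog genes, the 2 members reported here of smallest adjusted p per comparison and direction, the 3 members of largest and of smallest mean coverage and those with no region or with an input region; RPL8, RPL19 and RPS25 were named after their values were seen, and 3 members and 1 sequence are not reported here. Alternatives were regions with q under 0.05, equal numbers of regions (8158 per library), percentile ranks, the 5′ end of the gene record, no filter, the replicate number as a block, each library left out in turn and, for occupancy, a 200 bp overlap and a 500 bp flank; the contrasts between residues and the count without input regions were added later.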

Additional observations from a re-analysis of the deposited data

Results flagged for a closer look

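Differences of 2 kinds between the residues passed a test of the difference itself. Both contrasts were added after the values had been seen, and both use the same NaPr acetyl libraries. Far fewer members passed on the percentile rank scale. The count for the acetyl contrast also depended on several other single libraries, as described above. The gap between propionyl and acetyl coverage after NaPr was larger at H4K12 than at H3K18 in 46 of 82 ribosomal protein windows (56.1%), beside 33.3% of all windows. The share was 53.2% in the mitochondrial ribosomal protein genes, 45.5% in the other TOP translation genes and 29.3% in the proteasome genes. The difference in acetyl coverage between NaPr-treated and untreated cells was more negative at H4K12 than at H3K18 in 12 of 82 (14.6%), beside 5.82% of all windows. In the same 3 sets, in that order, it was more negative in 7.79%, 9.09% and 12.2%. Without H3K18ac NaPr replicate 1 the counts were 20 and 0, beside 15.4% and 0.091% of all windows. No group had the 4 samples that a test for a sample apart from its group needs.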

How the results depend on the processing

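Across the 11 tested counts, 76 of 122 alternative values stayed within 1.5 times the value given. With equal numbers of regions per library, the counts of members called were 6 for H3K18pr against H3K18ac (with 2.73% of all windows higher and 4.81% lower), 15 for H4K12pr against H4K12ac, 7 for H3K18bu against H3K18ac (7.44% of all windows lower), 9 for H3K18ac (8 of them lower, beside 14.3% of all windows) and 27 for H4K12ac after NaPr, 30 for H4K12ac after NaBu, and 12, 5 and 3 for the propionyl, NaPr and NaBu contrasts between residues (the NaPr one with 4.55% of all windows higher and 3.71% lower). On the percentile rank scale they were 0, 7, 2 and 8 for the comparisons between marks in the order of the report (H3K18pr, H4K12pr, H3K18bu, H4K12bu), 7 for H4K12ac after NaPr, 2 for H3K18ac and 8 for H4K12ac after NaBu, and 4 and 1 for the propionyl and NaPr contrasts. The median member difference changed sign on that scale for H3K18pr against H3K18ac (0.21), H3K18ac after NaPr (2.46) and H3K18ac after NaBu (2.85 percentile points). With windows at the 5′ end of the gene record, 1 member was called for H3K18pr against H3K18ac; without the filter, 0 were, and the NaPr and NaBu contrasts had 6 and 1. Leaving out single libraries gave 0 to 14 members for H3K18pr against H3K18ac, where the 2 members called without H3K18ac NaPr replicate 1 had the opposite direction, 33 to 46 for H4K12pr, 3 to 42 for H3K18bu, 0 to 20 for H3K18ac after NaPr, 49 to 60 for H4K12ac after NaPr, 8 to 23 for H3K18ac and 54 to 72 for H4K12ac after NaBu, and 20 to 64 and 0 to 45 for the propionyl and NaPr contrasts. The causes of these changes were not tested. With the replicate block the counts were 3, 60, 52 and 0 for the comparisons between marks, 0 and 72 after NaPr, 39 and 79 after NaBu and 55, 32 and 1 for the contrasts. These counts, and the ranges with single libraries left out, stand here without the share of all windows under the same fit. They are therefore not read as results about the members. Same-numbered libraries deviated together only weakly (correlations of -0.0213 to 0.242 over windows, 2 pairs each), so the replicate numbers were not taken to pair the samples. Members with a region exceeded other promoters in 20 of 20 libraries under each of the 5 occupancy alternatives, although the member count itself moved by over 1.5 times in 10 libraries with equal numbers of regions and in 5 with q under 0.05.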
